A study of Danio rerio with 24 samples.

Results

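Keratins and the genes that build the epidermal barrier were followed in RNA of whole zebrafish embryos exposed to a dioxin, in a line that carries a mutation in the long noncoding RNA slincR and in WT. The set was proposed with earlier results of these data known. Its genes were taken by symbol pattern, as keratins, cytokeratins, plakins, plakophilins, desmoplakin, annexins whose symbol begins with anxa1, ictacalcins, and agr2, tp63, lamb4, epcam and cdh1. This gave 37 of the 26347 genes in the deposited count table, and all 37 passed the filter on low counts. They comprise 15 keratin genes, 8 desmosome and plakin genes, 5 genes of adhesion, basement membrane, regulation or secretion, 2 ictacalcin genes and 7 annexin genes. The annexin pattern also takes annexin 11 and annexin 13 genes, which are not epidermal barrier genes by name. The slincR transcript itself was not analysed here.

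The study sequenced 24 samples from 3 lines, WT, slincRosu3 and BigD, of which 16 libraries are used here in 4 groups of 4. The groups are slincRosu3 embryos with 1 ng/mL TCDD, slincRosu3 control embryos, WT embryos with 1 ng/mL TCDD and WT control embryos. Exposure began at 6 hours after fertilization (hpf), and embryos were collected at 48 hpf. How long the exposure lasted is not given here. TCDD (2,3,7,8-tetrachlorodibenzo-p-dioxin) activates the aryl hydrocarbon receptor (AHR), a ligand-activated transcription factor. The slincRosu3 line was made with CRISPR-Cas9 and is mutated in slincR, an intergenic noncoding RNA named for sox9b, by the series title. Neither the type of mutation nor the line's zygosity is stated in the labels. The labels do not say how many founders, clutches or embryos stand behind a library, so p-values measure only the spread between these libraries, which may be technical. The 8 BigD samples were not analysed here.

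Keratins are intermediate filament proteins that assemble as pairs of an acidic type I and a basic type II chain, and in epithelia they carry mechanical load between desmosomes. The embryonic zebrafish epidermis has an outer periderm, rich in its own keratins and studded with actin microridges, above a basal layer that depends on the transcription factor tp63 and rests on a laminin basement membrane. Desmoplakin, plakophilins, periplakin and envoplakin tie keratin filaments to desmosomes and to the cell cortex. In this bulk RNA, fewer cells of a type and less RNA per cell cannot be told apart.

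Total counts per library ran from 17275522 to 20100736. Values below are CPM, the counts scaled to a common library total after TMM scaling, edgeR's correction of library sizes. CPM values are not divided by transcript length, so they are compared between libraries and not between genes. The summed level of 6 AHR target genes separated the treatments in every library, at 2486 to 2829 CPM in slincRosu3 with TCDD, 73.1 to 92.1 CPM in slincRosu3 controls, 1439 to 1945 CPM in WT with TCDD and 74.2 to 108.7 CPM in WT controls. In 4 libraries, WT control 4, slincRosu3 control 4, WT TCDD 3 and WT TCDD 4, the first principal component (29.8% of variance) stood at 32.7 to 56.2, against -40.0 to 18.1 in the other 12. The 100 most abundant genes took 35.3% to 38.4% of counts in those 4 libraries and 32.1% to 35.1% in the other 12. Results that rest on them are given with and without them.

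Keratin RNA was abundant in every library. The 15 keratin genes together took 3.07%, 2.72%, 2.74% and 2.90% of all counts in the slincRosu3 TCDD libraries and 2.69%, 2.33%, 2.84% and 3.21% in the slincRosu3 control libraries. In WT they took 2.94%, 2.87%, 3.06% and 2.94% with TCDD and 2.97%, 2.97%, 2.88% and 3.82% in control libraries. The lowest share was in slincRosu3 control 2 and the highest in WT control 4, and the ranges of the 4 groups overlapped. A single gene, krt4, a type II keratin used as a periderm marker, made up 64.4% to 69.1% of the counts of these 15 keratin genes in a library. Keratin genes outside the symbol patterns are not in that share. By itself krt4 took 1.6% to 2.54% of all counts. All 37 genes together took 2.53% to 4.03%.

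**Figure D1:**
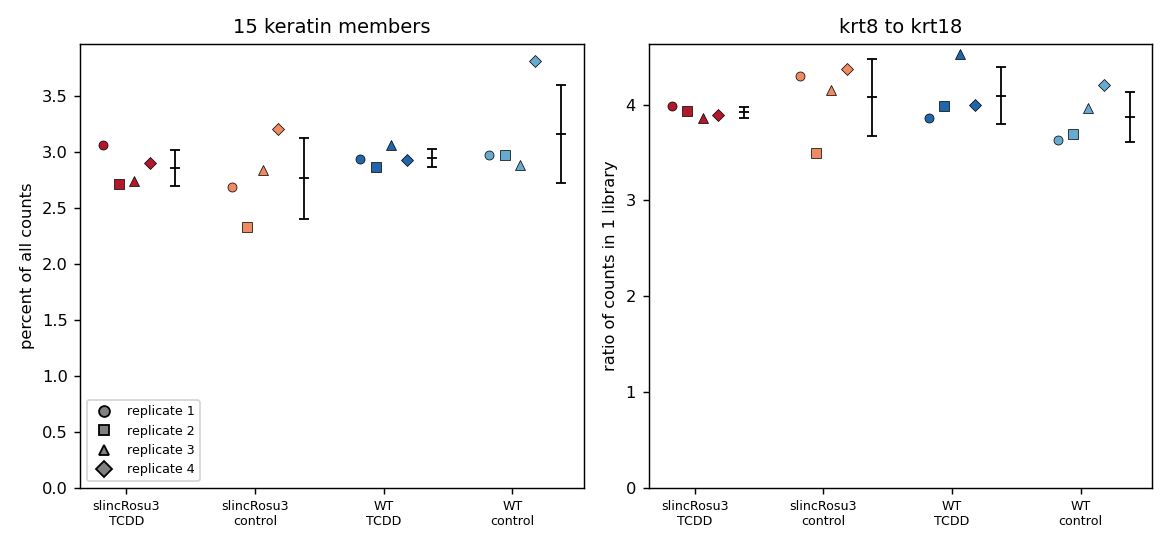
Left, the share of all counts taken by the 15 keratin genes, in percent, in each of the 16 libraries by line and treatment. Right, the ratio of krt8 counts to krt18 counts in the same libraries. Points are libraries with a marker shape for each replicate number, and bars are the group mean ± SD of 4 libraries. The share spans 2.33% to 3.82%, with WT control 4 highest, while the ratio stays between 3.49 and 4.53.

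The members did not vary equally between libraries. Single libraries carried many keratins up or down together: WT control 4 was the highest of the WT controls for 14 of 15 keratins and 29 of 37 members, and slincRosu3 control 4 was the highest of its group for 14 of 15 keratins and 28 of 37 members. Both belong to the 4 libraries that stood apart. In slincRosu3 control 2, by contrast, 30 of 37 members were at the lowest value of the group. The same count was not made over all genes, so these counts are not shown to be particular to the members. CPM values are divided by the TMM factor. That factor was 0.870 in WT control 4 and 0.928 in slincRosu3 control 4, each the lowest of its group. In slincRosu3 control 2 it was 1.066, the highest of its group. The part of scaling in these counts was not tested. The most even member was cdh1, which encodes E-cadherin, with a ratio of 1.18 between its highest and lowest library, while krt1-19d had a ratio of 5.44 and krt96, a further type I keratin, one of 4.04.

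**Figure D2:**
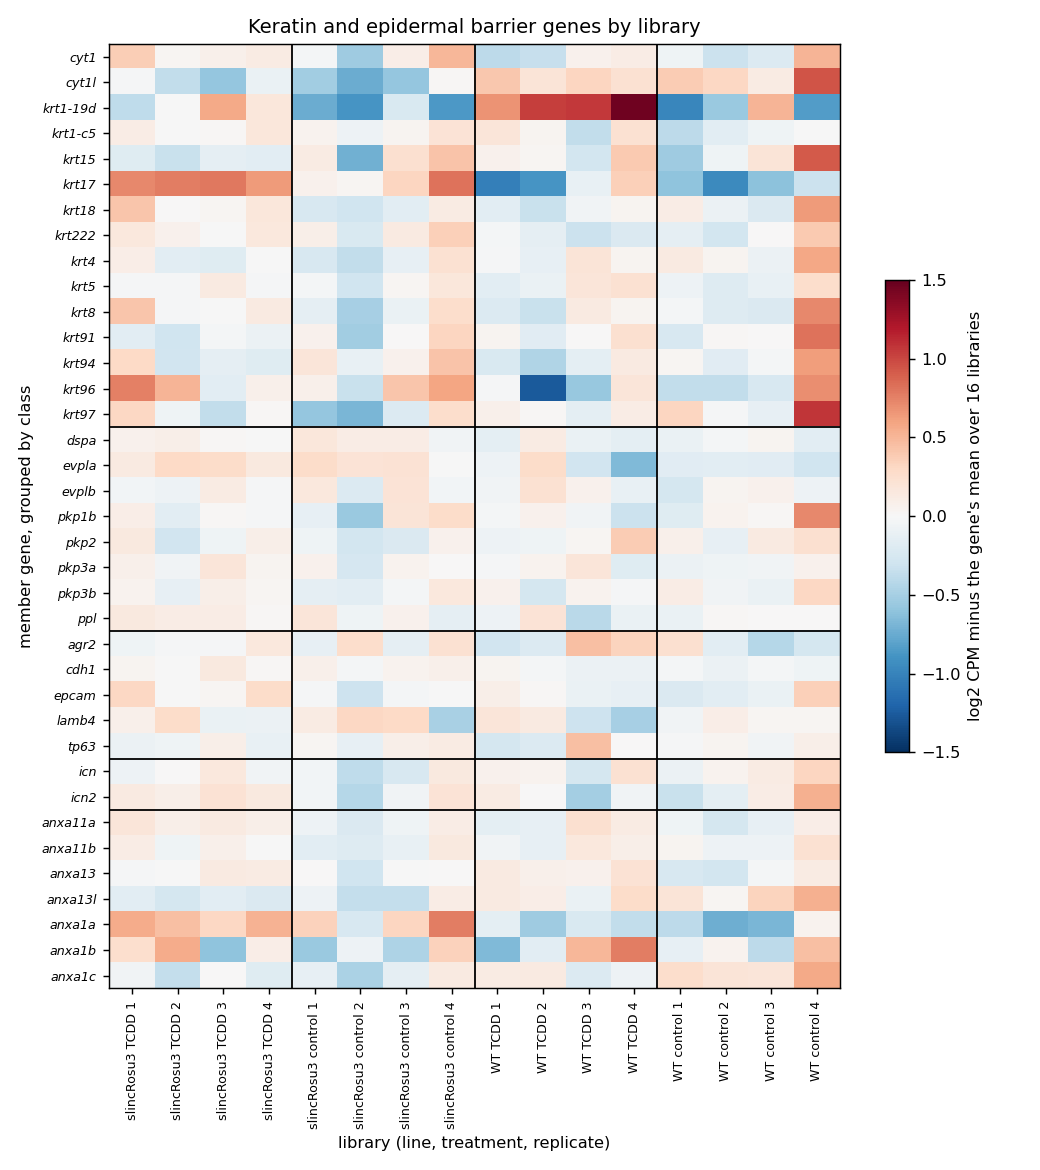
Each row is one of the 37 genes, grouped by class, and each column one of the 16 libraries. Colour gives log2 CPM minus the mean of that gene over the 16 libraries, from -1.5 (blue) to 1.5 (red). Red runs down most keratin rows in WT control 4, krt17 and anxa1a are mostly red in slincRosu3 and mostly blue in WT, cyt1l is the reverse, and krt1-19d is red in the WT TCDD libraries.

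The first comparison was TCDD against control, within each line and averaged over both. A single member, krt1-19d, rose with TCDD, and no member fell. The keratin krt1-19d (ENSDARG00000023082) is a type I keratin whose gene stands in a row of keratin genes on chromosome 19. Its level was 9.61, 12.5, 18.6 and 14.1 CPM in slincRosu3 with TCDD, against 7.50, 6.78, 10.7 and 6.88 CPM in slincRosu3 controls. In WT it was 19.97, 25.8, 26.2 and 34.5 CPM with TCDD, against 6.34, 8.52, 17.8 and 7.03 CPM in controls. The WT groups did not overlap, although WT control 3 came close to the lowest WT TCDD library. In slincRosu3 the ranges overlapped through TCDD replicate 1 and control replicate 3.

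Averaged over both lines, krt1-19d was 2.14-fold higher with TCDD (log2 fold change 1.1, SE 0.202, 95% interval 0.67 to 1.52, edgeR quasi-likelihood adjusted p = 0.00968, Benjamini-Hochberg over all genes). Group means were 20.1 ± 8.30 CPM with TCDD and 8.95 ± 3.85 CPM in control (SD, n = 8 libraries each). In WT alone the fold was 2.67 (log2 fold change 1.42, SE 0.283, edgeR adjusted p = 0.0395), and in slincRosu3 alone it was 1.72 (log2 0.78, SE 0.288, edgeR adjusted p = 0.682). The difference between these effects, slincRosu3 minus WT, was -0.63 on the log2 scale (SE 0.401, 95% interval -1.48 to 0.21, edgeR adjusted p = 0.996), so the lines were not shown to differ. Without the 4 libraries that stood apart, the averaged log2 fold change was 0.89 (edgeR adjusted p = 0.0584) and the WT one 1.07 (edgeR adjusted p = 0.121), neither past the threshold. The WT call was also lost, at log2 fold changes of 1.25 to 1.43 and adjusted p of 0.0507 to 0.162 in edgeR, without any one of WT control 1, 2 or 4, WT TCDD 2, 3 or 4, slincRosu3 control 1 or 2, or slincRosu3 TCDD 2 or 4. A fit of the WT groups alone gave 1.41 on the log2 scale (edgeR adjusted p = 0.227). In the authors' deposited table, krt1-19d has a log2 fold change of 1.41 and an adjusted p of 0.000374 for TCDD in WT.

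**Figure D3:**
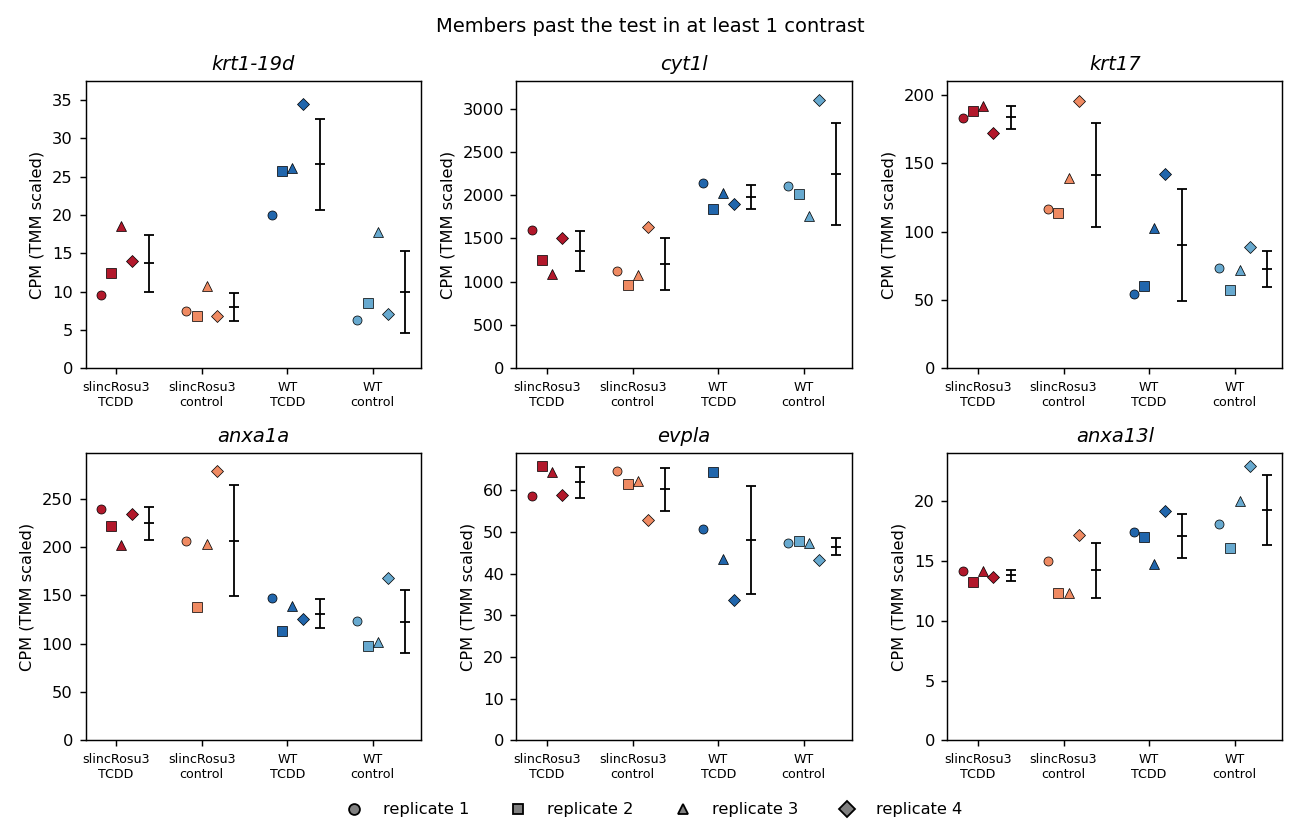
CPM in each library, by line and treatment, for the 6 members that passed the test in at least 1 comparison. Points are libraries with a marker shape per replicate number, and bars are mean ± SD of 4 libraries. For cyt1l every slincRosu3 library lies below every WT library, and for krt1-19d every WT TCDD library lies above every WT control library.

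Across all genes the test called 0.325% in WT and 0.804% for the averaged effect, against 1 of 37 members in each. In slincRosu3 it called 0.383% of all genes and 0 of 37 members, where 1 member and 1016 of the 20907 genes tested had an unadjusted p under 0.05 and DESeq2 also called 0 members. For the difference of the TCDD effects it called 0 genes, 0 of 37 members included, and 1 member and 899 genes had an unadjusted p under 0.05. DESeq2 called 0 members there as well. The median log2 fold change of the members for the averaged TCDD effect was 0.01, and that of all genes was -0.00.

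For the 36 members that did not pass, the averaged TCDD effect ran from -0.25 to 0.34 on the log2 scale, with edgeR adjusted p from 0.486 to 0.999. The largest of these was krt17, at 0.34, and the lowest krt94, a type I keratin, at -0.25. For 36 of 37 members the 95% interval of the averaged effect lay within a 2-fold change in either direction. The abundant keratins krt4, krt5 and cyt1 had averaged effects of -0.06, 0.06 and -0.02 on the log2 scale. A miss of the threshold does not show that a level was the same.

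Among the epidermal structural genes, the desmosome and plakin members stayed between -0.13 and 0.07 on the log2 scale for the averaged TCDD effect. The 5 members for adhesion, laminin, tp63 and agr2 ranged from -0.09 to 0.11, and both ictacalcins stood at 0.02. For the annexins the range was -0.16 to 0.23, with anxa13, an intestinal annexin in mammals, at 0.18 (edgeR adjusted p = 0.486).

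**Figure D4:**
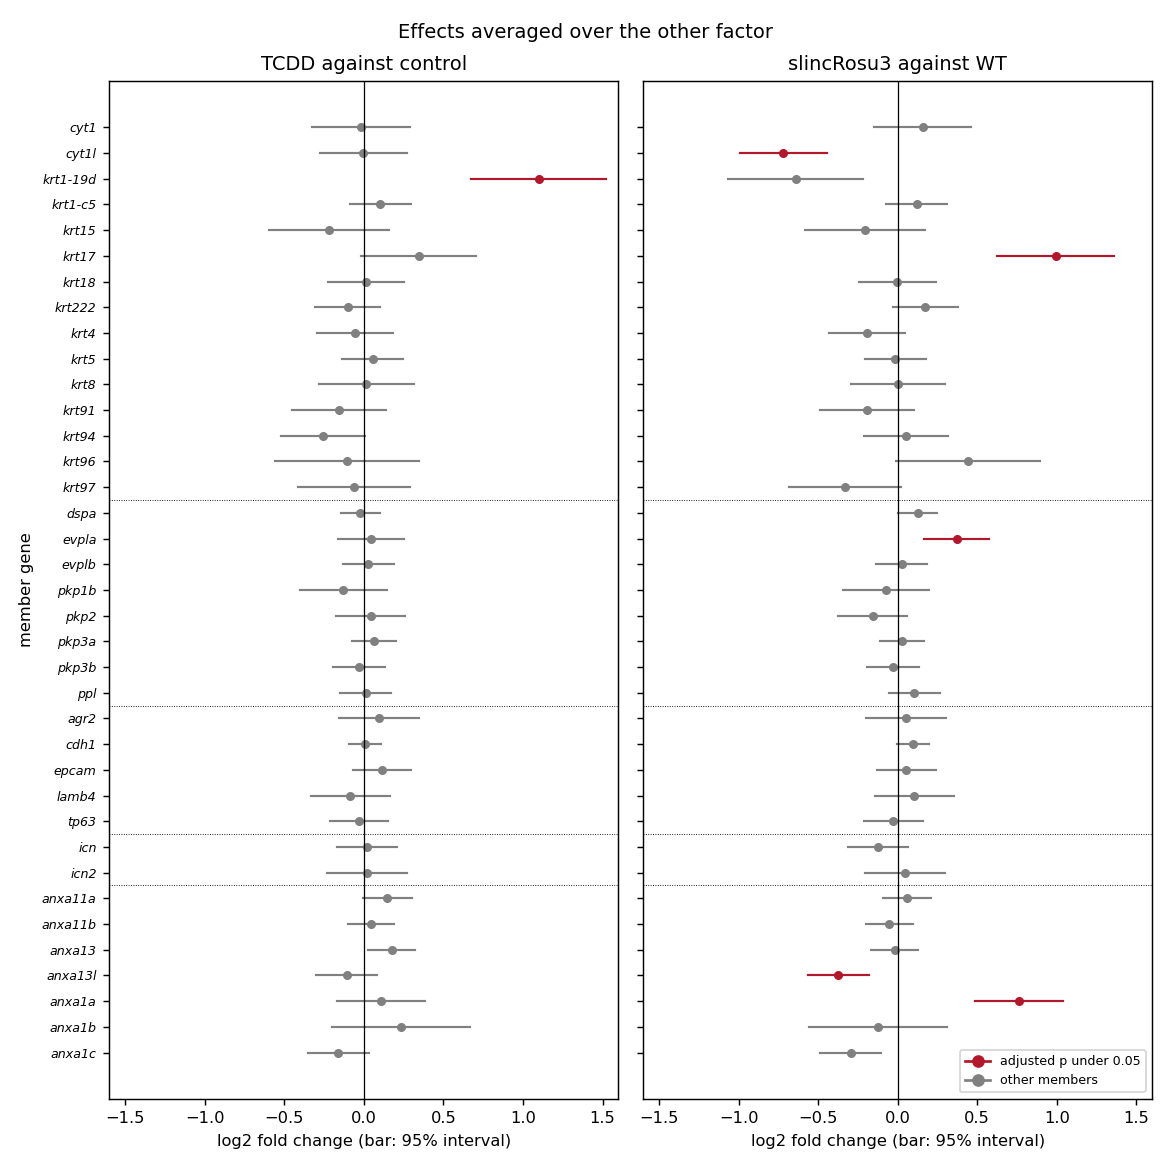
Log2 fold change of each of the 37 members with its 95% interval, for TCDD against control averaged over both lines (left) and slincRosu3 against WT averaged over both treatments (right). Dotted lines separate the gene classes. Red marks an edgeR adjusted p under 0.05. On the left krt1-19d alone is red, at 1.1, and on the right cyt1l, krt17, evpla, anxa13l and anxa1a are.

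The second comparison was slincRosu3 against WT. Averaged over both treatments, krt17, anxa1a and evpla were higher in slincRosu3, and cyt1l and anxa13l were lower. That is 5 of 37 members, or 13.5%, where the same test called 5.45% of all genes. Higher calls were 3 of 37 members beside 2.65% of genes, and lower calls 2 of 37 beside 2.8%. The counts are small and the members were proposed with earlier results of these data known, so the members' share is a description and no test. Median log2 fold changes were 0.00 for the members and -0.01 for all genes.

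The type I cytokeratin gene cyt1l (ENSDARG00000036832), a periderm keratin, was lower in slincRosu3. It measured 1595, 1248, 1085 and 1504 CPM in slincRosu3 with TCDD and 1125, 965, 1082 and 1637 CPM in slincRosu3 controls. WT libraries held 2145, 1841, 2023 and 1894 CPM with TCDD and 2110.3, 2008, 1756 and 3098 CPM in controls. Every slincRosu3 library was below every WT library, and the closest were slincRosu3 control 4 and WT control 3. The averaged level was 1.65-fold lower in slincRosu3 (log2 fold change -0.72, SE 0.130, 95% interval -0.99 to -0.45, edgeR quasi-likelihood adjusted p = 0.00246), and this call was kept in all 21 alternatives, with edgeR or DESeq2 adjusted p up to 0.00756. In controls it was 1.87-fold lower (log2 -0.90, SE 0.184, edgeR adjusted p = 0.0164), and with TCDD the log2 fold change was -0.54 (SE 0.183, edgeR adjusted p = 0.161), or -0.56 without the 4 libraries that stood apart (edgeR adjusted p = 0.0386). The control call was lost without any one of slincRosu3 control 1, 2 or 3 (log2 -0.87 to -0.81, edgeR adjusted p 0.0643 to 0.0685) and in a fit of the control groups alone (edgeR adjusted p = 0.105). It was kept without the 4 libraries that stood apart (log2 -0.88, edgeR adjusted p = 0.00296).

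The gene krt17 (ENSDARG00000094041), a type I keratin of the periderm, went the other way. Its levels were 183, 188, 192 and 172 CPM in slincRosu3 with TCDD and 116, 114, 139 and 195.5 CPM in slincRosu3 controls. In WT they were 54.7, 60.2, 103 and 142 CPM with TCDD and 73.1, 57.0, 72.3 and 88.9 CPM in controls. The lines overlapped only through WT TCDD 4, which exceeded slincRosu3 control 1, 2 and 3. WT TCDD 3 and WT TCDD 4, both among the libraries that stood apart, were the highest WT libraries.

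Averaged over treatments krt17 was 1.99-fold higher in slincRosu3 (log2 0.99, SE 0.173, 95% interval 0.63 to 1.36, edgeR quasi-likelihood adjusted p = 0.00191), a call kept in all 21 alternatives with adjusted p in edgeR or DESeq2 up to 0.00573. With TCDD it was 2.04-fold higher (log2 1.03, SE 0.245, edgeR adjusted p = 0.0375), and in controls the log2 fold change was 0.95 (SE 0.245, edgeR adjusted p = 0.0659, DESeq2 adjusted p = 0.00905). Without the 4 libraries that stood apart the TCDD value was 3.19-fold (log2 1.67, edgeR adjusted p = 5.27e-06) and the averaged value 2.41-fold (log2 1.27, edgeR adjusted p = 4.22e-07). That fit keeps only WT TCDD 1 and WT TCDD 2 in their group. It leaves out WT TCDD 3 and WT TCDD 4, the highest WT libraries for krt17, so its larger folds are no added support. In that smaller fit krt17 was also higher with TCDD than in control in slincRosu3 (log2 0.58, edgeR adjusted p = 0.00993), where the fit of 16 libraries gave 0.38 (edgeR adjusted p = 0.999). Between the lines in controls the smaller fit gave log2 0.87 for krt17 (edgeR adjusted p = 0.000743). The TCDD call between lines was lost without WT TCDD 1, 2 or 3, slincRosu3 control 3, or any one slincRosu3 TCDD library, at log2 0.85 to 1.1 and edgeR adjusted p of 0.0515 to 0.0975.

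Annexin A1 genes encode calcium-dependent phospholipid-binding proteins, and in mammals annexin A1 is present in the cornified envelope and in leukocytes. The paralog anxa1a (ENSDARG00000026726) measured 239.8, 222, 202 and 235 CPM in slincRosu3 with TCDD and 207, 138, 203 and 278 CPM in slincRosu3 controls. WT libraries held 147, 113, 139 and 126 CPM with TCDD and 124, 98.1, 101.4 and 168 CPM in controls. The lines overlapped through slincRosu3 control 2, which was below WT control 4, WT TCDD 1 and WT TCDD 3. Over both treatments anxa1a was 1.70-fold higher in slincRosu3 (log2 0.76, SE 0.130, 95% interval 0.49 to 1.04, edgeR adjusted p = 0.00164), a call kept in all 21 alternatives with edgeR or DESeq2 adjusted p up to 0.00473. With TCDD it was 1.71-fold higher (log2 0.77, SE 0.184, edgeR adjusted p = 0.0378), and in controls the log2 fold change was 0.75 (SE 0.185, edgeR adjusted p = 0.0514, DESeq2 adjusted p = 0.00712). Without the 4 libraries that stood apart, log2 fold changes were 0.78 with TCDD (edgeR adjusted p = 0.0183) and 0.77 in controls (edgeR adjusted p = 0.0154). The TCDD call was lost without any one WT TCDD or slincRosu3 TCDD library, or without slincRosu3 control 1 or 3, at log2 0.71 to 0.83 and edgeR adjusted p of 0.0519 to 0.117.

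Its paralog anxa1c, an annexin of the periderm, did not pass in edgeR on the 16 libraries without a replicate block, but did in DESeq2. The level of anxa1c averaged 137 ± 14.8 CPM in slincRosu3 with TCDD, 138 ± 23.2 CPM in slincRosu3 controls, 152 ± 17 CPM in WT with TCDD and 189 ± 25.0 CPM in WT controls (SD, n = 4 each). The averaged log2 fold change for slincRosu3 was -0.30 (SE 0.0910, edgeR adjusted p = 0.0704, DESeq2 adjusted p = 0.0296). Without the 4 libraries that stood apart it was -0.36 (edgeR adjusted p = 0.0116). Within single libraries the counts of anxa1a over those of anxa1c were 1.26 to 1.87 in slincRosu3 and 0.565 to 1.06 in WT, with no overlap. The third paralog, anxa1b, varied widely, from 28.7 to 64.1 CPM in slincRosu3 with TCDD, 29.6 to 55.4 CPM in slincRosu3 controls, 27.5 to 74.3 CPM in WT with TCDD and 33.3 to 59.6 CPM in WT controls.

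Smaller shifts passed for a plakin and an annexin 13 gene. The envoplakin gene evpla (ENSDARG00000019808), whose product links keratin filaments to the cortex and microridges of periderm cells, measured 58.5, 65.7, 64.5 and 58.9 CPM in slincRosu3 with TCDD and 64.6, 61.4, 62.2 and 52.9 CPM in slincRosu3 controls. WT libraries gave 50.7, 64.3, 43.6 and 33.7 CPM with TCDD and 47.3, 47.9, 47.3 and 43.4 CPM in controls. WT TCDD 2 alone among WT libraries reached the slincRosu3 range. The averaged level was 1.29-fold higher in slincRosu3 (log2 0.37, SE 0.0980, 95% interval 0.16 to 0.58, edgeR adjusted p = 0.0337), and 0.25 on the log2 scale without the 4 libraries that stood apart (edgeR adjusted p = 0.0303). At each treatment alone evpla did not pass, at log2 0.37 in controls (edgeR adjusted p = 0.265) and 0.37 with TCDD (edgeR adjusted p = 0.217). Without the 4 libraries that stood apart it was 0.40 in controls (edgeR adjusted p = 0.0274) and 0.10 with TCDD (edgeR adjusted p = 0.583). The averaged call was lost, at log2 0.35 to 0.38 and edgeR adjusted p of 0.0506 to 0.0732, without WT control 2, 3 or 4, WT TCDD 3, slincRosu3 control 1, 2 or 3, or any one slincRosu3 TCDD library.

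The gene anxa13l (ENSDARG00000013613), an annexin 13 relative, measured 14.1, 13.2, 14.1 and 13.6 CPM in slincRosu3 with TCDD and 14.996, 12.4, 12.3 and 17.1 CPM in slincRosu3 controls. In WT it stood at 17.4, 16.96, 14.7 and 19.2 CPM with TCDD and 18.1, 16.1, 19.97 and 22.9 CPM in controls. With TCDD the lines did not overlap, while in controls slincRosu3 control 4 exceeded WT control 2. The averaged log2 fold change was -0.37 (SE 0.0909, edgeR adjusted p = 0.0205), lower in slincRosu3.

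At each treatment alone fewer members passed. In controls 1 of 37 members, cyt1l, passed and was lower in slincRosu3, while the test called 1.54% of all genes. With TCDD 2 of 37 members, krt17 and anxa1a, passed and were higher, while the test called 1.86%. The keratin krt1-19d, which rose with TCDD, had a log2 fold change for slincRosu3 of -0.96 with TCDD (SE 0.278, edgeR adjusted p = 0.0952) and of -0.64 averaged over treatments (SE 0.201, edgeR adjusted p = 0.0754). DESeq2 on the same libraries called krt1-19d in both, at adjusted p of 0.0335 with TCDD and 0.0299 averaged. So did edgeR with a replicate block (adjusted p = 0.0159 and 0.0148). With TCDD, edgeR also called it with only the groups compared (adjusted p = 0.0338) and without WT control 3 (0.0235). Averaged, edgeR called it without WT control 1 (adjusted p = 0.044) or WT control 4 (0.048). Without the 4 libraries that stood apart it was not called, at log2 -0.74 with TCDD (edgeR adjusted p = 0.225) and -0.57 averaged (edgeR adjusted p = 0.173). The krt1-19d calls between lines therefore depend on the tool, the model and the libraries. In the authors' deposited table krt1-19d, at -0.95, is among the members past an adjusted p of 0.05 for slincR TCDD against WT TCDD, with krt17 at 1.04 and anxa1a at 0.78. For slincR control against WT control that table has 2 members higher, krt17 (0.95) and anxa1a (0.74), and 2 lower, cyt1l (-0.91) and anxa1c (-0.45). It holds 499 genes past 0.05 there, of 24302 with an adjusted p. For slincR TCDD against WT TCDD the authors deposited 671 genes past 0.05, of 23792 with an adjusted p.

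The other keratins did not pass in any line comparison in the edgeR fit of 16 libraries without a replicate block. In the averaged contrast the 13 keratins that did not pass ran from -0.64 to 0.44 on the log2 scale, with krt1-19d lowest and krt96 highest. For krt4 the mean level was 18715 ± 1714 CPM in slincRosu3 with TCDD, 18100.3 ± 3403 CPM in slincRosu3 controls, 19921 ± 1799 CPM in WT with TCDD and 22276 ± 4827 CPM in WT controls (SD, n = 4 each). Its averaged log2 fold change was -0.19 (SE 0.113, edgeR adjusted p = 0.384). Further keratins of high level were krt5, cyt1 and krt91, with averaged line effects of -0.01, 0.16 and -0.19 on the log2 scale. The gene krt97 had a log2 fold change of -0.64 in controls (SE 0.236, edgeR adjusted p = 0.26), where WT control 4 stood at 274 CPM and the other WT controls at 119.9 to 163 CPM. Low-level keratins gave averaged line effects of 0.12 for krt1-c5, -0.21 for krt15 and 0.05 for krt94.

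The type II keratin krt8 and the type I keratin krt18 encode the classical pair of simple epithelia. Across the 16 libraries krt8 ranged from 797 to 1846 CPM, whereas the ratio of krt8 to krt18 counts stayed between 3.49 and 4.53. The averaged slincRosu3 effects were 0.00 for krt8 and -0.00 for krt18 on the log2 scale, with SE of 0.141 and 0.114. The difference of TCDD effects between lines for krt18 was 0.57 (SE 0.227, 95% interval 0.09 to 1.04, edgeR adjusted p = 0.996).

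Several members lie in rows of neighbouring family genes, by gene order in the assembly GRCz12tu. On chromosome 19 the row holds 7 genes, in the order krt1-19d, krt1-19e, krt92, cyt1l, cyt1, krt17 and krt91. Of these krt1-19e and krt92 have no such symbol in the authors' table and are known here by the gene name table, so they are not members. Of the 4 members cyt1l, cyt1, krt17 and krt91, which stand next to each other, cyt1l and krt17 passed between the lines, in opposite directions. For cyt1l the averaged slincRosu3 effect was -0.72, for cyt1 0.16 (SE 0.145, edgeR adjusted p = 0.626), for krt17 0.99 and for krt91 -0.19 on the log2 scale. The non-member krt92, a type I keratin used as a periderm marker, was 1.58-fold higher in slincRosu3 (log2 0.66, SE 0.108, edgeR adjusted p = 0.00109), and krt1-19e stood at -0.12 (edgeR adjusted p = 0.553).

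Ratios within a library do not depend on library scaling. The counts of cyt1l over those of cyt1 were 0.458, 0.454, 0.380 and 0.512 in slincRosu3 with TCDD and 0.425, 0.516, 0.374 and 0.430 in slincRosu3 controls. In WT the ratio was 1.04, 0.864, 0.717 and 0.648 with TCDD and 0.815, 0.933, 0.751 and 0.805 in controls. No slincRosu3 library reached a WT one. The ratio of krt17 to cyt1 counts was 0.0525 to 0.0685 in slincRosu3 with TCDD, 0.0439 to 0.0608 in slincRosu3 controls, 0.0265 to 0.0487 in WT with TCDD and 0.0231 to 0.0309 in WT controls, and the lines overlapped through WT TCDD 4. Genes of such a row are similar in sequence, and reads that the counting could not place uniquely (4.1% to 4.88% of reads in WT libraries) may belong to any of them, so single values of these paralogs are uncertain.

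**Figure D5:**
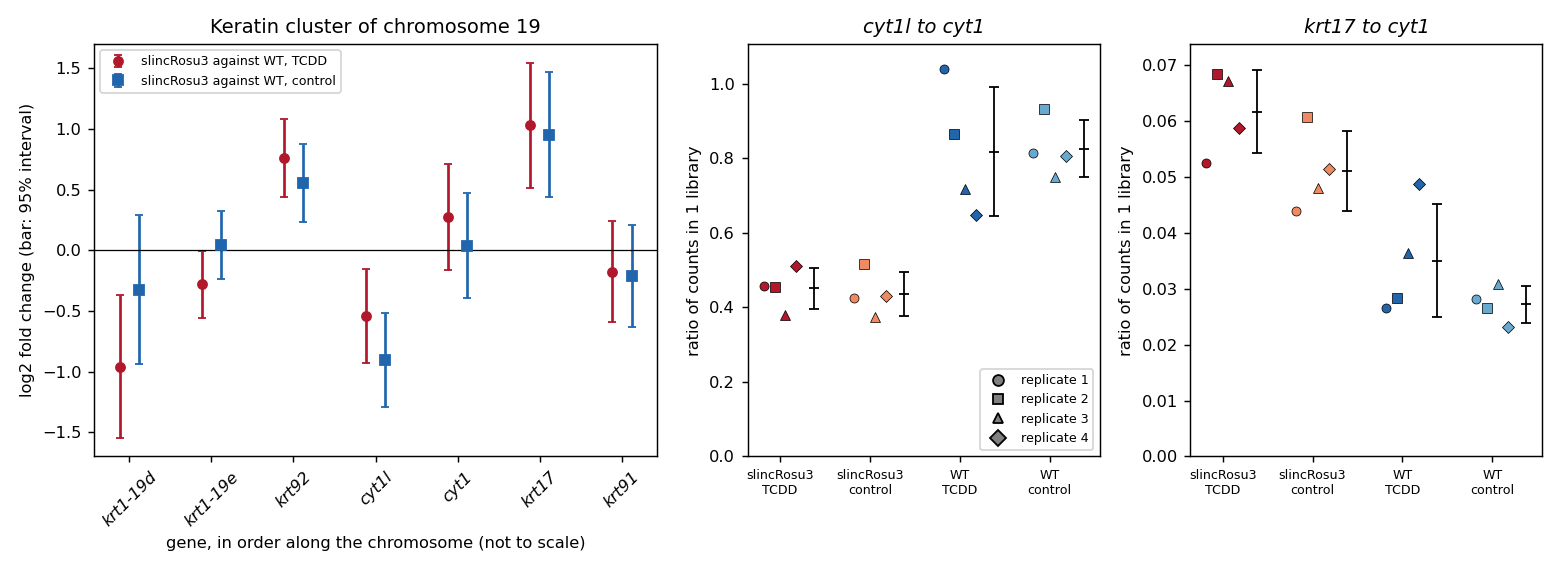
Left, log2 fold change of slincRosu3 against WT with its 95% interval, with TCDD (red circles) and in controls (blue squares), for the 7 keratin genes of the chromosome 19 row in gene order, not to scale. Centre and right, the ratios of cyt1l to cyt1 and of krt17 to cyt1 counts in each library, with mean ± SD of 4 libraries. The cyt1l ratio is 0.374 to 0.516 in slincRosu3 and 0.648 to 1.04 in WT, and krt17 and cyt1l lie on opposite sides of 0 in the left panel.

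Desmosome and plakin genes other than evpla did not pass in any comparison. Desmoplakin (dspa) stood at 80.7 ± 2.40 CPM in slincRosu3 with TCDD, 83.6 ± 5.37 CPM in slincRosu3 controls, 75.3 ± 7.04 CPM in WT with TCDD and 75.2 ± 4.57 CPM in WT controls (SD, n = 4 each), with an averaged line effect of 0.13 on the log2 scale (SE 0.0580, edgeR adjusted p = 0.247). Periplakin (ppl), a partner of envoplakin, had an averaged line effect of 0.10 and the second envoplakin gene, evplb, one of 0.02. Plakophilins are armadillo proteins of the desmosomal plaque. Their averaged line effects were -0.07 for pkp1b, -0.16 for pkp2, 0.03 for pkp3a and -0.03 for pkp3b on the log2 scale.

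None of the adhesion, basement membrane, regulatory or secretory members passed in any comparison, by edgeR. E-cadherin (cdh1) averaged 97.9 ± 4.61 CPM in slincRosu3 with TCDD, 97.6 ± 3.41 CPM in slincRosu3 controls, 91.8 ± 3.87 CPM in WT with TCDD and 91.2 ± 1.92 CPM in WT controls (SD, n = 4 each). Its averaged line effect was 0.10 on the log2 scale (SE 0.0483, edgeR adjusted p = 0.301). The basal-layer factor tp63 had a line effect of -0.03 (SE 0.0873). It was highest in WT TCDD 3, at 99.8 CPM, against 61.0 to 73.1 CPM in the other WT TCDD libraries. The epithelial adhesion gene epcam, the laminin chain gene lamb4 and agr2, a protein disulfide isomerase of mucous cells, had averaged line effects of 0.05, 0.11 and 0.05.

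Ictacalcins are S100 calcium-binding proteins of fish epithelia, and icn and icn2 are neighbours on chromosome 16. The level of icn was 295 ± 22.6 CPM in slincRosu3 with TCDD, 269.5 ± 43.8 CPM in slincRosu3 controls, 298 ± 40.7 CPM in WT with TCDD and 316 ± 37.7 CPM in WT controls (SD, n = 4 each). The ratio of icn2 to icn counts ran from 0.242 to 0.339 over the 16 libraries. Averaged line effects were -0.12 for icn and 0.05 for icn2 on the log2 scale. The remaining annexins gave line effects of 0.06 for anxa11a, -0.05 for anxa11b and -0.02 for anxa13.

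Genes of the same pathways outside the symbol patterns were counted from lists chosen with earlier results known. Beside these counts, the averaged line contrast called 5.45% of all genes, the averaged TCDD contrast 0.804% and TCDD in slincRosu3 0.383%. In the averaged line contrast 3979 of the 20907 genes tested had an unadjusted p under 0.05. In the averaged TCDD contrast 1614 did. Of 22 desmosome, hemidesmosome and cornified envelope genes, the averaged line contrast called 2 higher in slincRosu3 and 1 lower. The averaged TCDD contrast called 0 by edgeR and by DESeq2, with 1 gene at an unadjusted p under 0.05. The hemidesmosome genes plecb (plectin) and itgb4 (integrin beta 4) stood at 0.21 and 0.29 on the log2 scale (edgeR adjusted p = 0.0405 and 0.0260), and the transglutaminase gene tgm1l4 at -0.63 (edgeR adjusted p = 0.00375). Of 22 adhesion and tight junction genes 2 were higher, cldne, a claudin of the periderm, and the cadherin gene cdh17, both at 0.26. Of 17 other annexin and S100 genes, anxa3b was higher at 0.33 and anxa3a and s100a10b were lower at -0.36 and -0.31. Of 20 other intermediate filament and lamin genes, edgeR called 0 in the averaged line contrast, where 4 had an unadjusted p under 0.05 and DESeq2 called 1. Of 23 epidermal transcription factors dlx3b, a homeobox factor of ectoderm and placodes, passed in edgeR. It was higher with TCDD, at 0.62 on the log2 scale in slincRosu3 (edgeR adjusted p = 0.0244) and 0.45 averaged over the lines (edgeR adjusted p = 0.0110).

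Marker lists gave summed levels of the genes listed for each cell layer. For 14 superficial epidermis genes, 10 of them members, the summed level was 24912 to 29413 CPM in slincRosu3 with TCDD, 20694 to 32203 CPM in slincRosu3 controls, 25175 to 30648 CPM in WT with TCDD and 25668 to 40221 CPM in WT controls. For 12 basal epidermis genes, 4 of them members, it was 1082 to 1104, 1002 to 1153, 955 to 1054 and 903 to 1015 CPM in the same groups. With TCDD the basal ranges did not overlap between the lines, with slincRosu3 higher, and in controls they did through slincRosu3 control 4. That separation depends on the genes listed, which include the epithelial adhesion genes cdh1 and epcam. It does not measure the basal layer alone. The keratin krt1-19e, named krtt1c19e by the authors and on neither list, went the other way with TCDD. It stood at 1161 to 1304 CPM in slincRosu3 and 1296 to 1791 CPM in WT. Its log2 fold change there was -0.28 (edgeR adjusted p = 0.347), and its level was above the whole basal sum in both groups. The superficial ranges overlapped between the lines in both treatments. Most of the superficial sum was krt4, at 15052 to 29261 CPM per library, so that sum largely repeats the krt4 result. In the averaged line contrast, the superficial list had 4 genes higher (krt17, krt92, evpla and cldne) and 1 lower (cyt1l), and the basal list had itgb4 higher, where the same test called 2.65% of all genes higher and 2.8% lower. The lists were chosen with earlier results of these data known and share genes with the members. These counts are therefore a description and no test of the lists.

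Markers of other cell types also differed between the lines, in a contrast that called 5.45% of all genes. In the averaged line contrast mpeg1.1, a macrophage gene, was higher in slincRosu3 (log2 0.58, edgeR adjusted p = 0.00251), 1 of 6 leukocyte markers, with a summed level of 51.8 to 54.0 CPM in slincRosu3 with TCDD, 52.2 to 64.4 CPM in slincRosu3 controls, 39.8 to 52.6 CPM in WT with TCDD and 47.2 to 55.3 CPM in WT controls. An unadjusted p under 0.05 was found for 5 of these 6 leukocyte markers, beside 3979 of the 20907 genes tested. The median log2 fold change of these markers was 0.28, beside -0.01 for all genes. Of 4 mucous cell markers muc5.2 was higher at 0.62 and muc5.1 lower at -0.51 on the log2 scale, and of 11 ionocyte markers slc12a10.2 was higher at 0.70. Of 5 hatching gland markers ctslb was higher at 0.69, and of 5 genes listed for intestine cdh17 at 0.26. Whether cdh17 RNA came from the intestine in these embryos was not tested. Of 6 notochord markers edgeR and DESeq2 called 0, with 2 at an unadjusted p under 0.05. Their part in the differences of krt17, cyt1l, anxa1a and evpla was not tested.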

How the data were processed

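RNA of 16 whole-embryo libraries was analysed. The raw counts per Ensembl gene were deposited by the authors as sums of 2 read files per sample, with low-count genes removed. A column with 1 value that was not whole was taken as estimated counts deposited by the authors, and that value was rounded. HISAT2, STAR, DESeq2 and the build GRCz11 are named in the submitters' processing notes, without versions. No source used here names the counter, annotation or strand setting, so reads of a gene and of an overlapping or antisense partner cannot be separated. In the WT libraries, before the authors' filter, 39.8% to 43.2% of reads were assigned to a gene and 52.3% to 55.3% fell in no feature. A further 86 columns were not used. Among the 6173 genes the authors removed, krt95 held 0 counts and krt93 6 counts over the WT libraries. A deposited table of the authors holds log2 fold changes with adjusted p-values, and is named where quoted.

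Counts were fitted in edgeR 4.0.16 under R 4.3.3 with TMM scaling and filterByExpr, which kept 20907 genes. Contrasts used the two-sided quasi-likelihood F test, on 16 libraries in 4 groups with 12 residual degrees of freedom and Benjamini-Hochberg adjustment over all genes at 0.05. It was tested on simulated data. Alternatives were DESeq2 1.42.0, DESeq2 size factors, no filter, only the groups compared, a replicate block, and leaving out libraries. The 37 members, the lists, the tests and the libraries left out were chosen with earlier results of these data known. Genes were named when they passed in any of 7 contrasts, averaged at least 100 CPM, were among the 3 highest or 3 lowest fold changes of a contrast, or had a listed role. Gene order and chromosomes come from a gene table of GRCz12tu, and no coordinates are given.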

Additional observations from a re-analysis of the deposited data

Results flagged for a closer look

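In 8 of 148 groups of 4 libraries a member had 1 library far from the other 3, where chance gives about 1 in 20, or 7.4. Of the 8, 4 concern WT control 4, one of the libraries that stood apart: krt8 was high at 1846 CPM against 962 to 1101 CPM in the other WT controls. There krt96 was high at 27.13 CPM against 12.9 to 14.2 CPM, and epcam was high at 261.6 CPM against 176 to 190.5 CPM. The envoplakin gene evpla was low in WT control 4, at 43.37 CPM against 47.3 to 47.9 CPM. In slincRosu3 control 2 anxa13 was low at 49.98 CPM against 61.5 to 61.8 CPM, and epcam was low at 164.5 CPM against 199.5 to 203.5 CPM. The epidermal keratin gene krt5 was high in slincRosu3 TCDD 3, at 2552 CPM against 2293 to 2299 CPM. Periplakin (ppl) was low in WT control 1, at 171.7 CPM against 184 to 185 CPM.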

How the results depend on the processing

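Of 10 named fold changes past the threshold, 214 alternative values kept their direction, 167 stayed past the threshold, 47 lost the call and 0 reversed. Of 242 named values not past it, 35 of 5222 alternative values passed and 321 changed sign with neither value past the threshold. Members called for TCDD in WT were 0 with only the groups compared and 0 without the 4 libraries that stood apart (1 in the fit of 16 libraries). Without those libraries the count was 1 for TCDD in slincRosu3 (krt17), 0 for the averaged TCDD effect and 6 for slincRosu3 against WT in controls. These 6 were cyt1l, krt17, anxa1a, evpla, anxa1c and anxa13l. For that last contrast, 1 in the fit of 16 libraries, it was 2 with no filter, 3 with the replicate block, 0 with only the groups compared and 5 with DESeq2. With TCDD the replicate block gave 4 between the lines, against 2, with cyt1l (adjusted p = 0.0407) and krt1-19d (0.0159) added. Averaged over treatments the block gave 7 against 5, with krt1-19d (adjusted p = 0.0148) and anxa1c (0.0492) added, and DESeq2 also gave 7. Leaving out 1 library gave 0 to 1 for TCDD in WT, 0 to 3 for slincRosu3 against WT in controls, 0 to 3 with TCDD and 4 to 6 averaged. Libraries that raised the control count were WT control 4 (2), WT TCDD 1, 2 and 4 (2 each) and slincRosu3 control 4 (3). The cause was not tested. The share of all genes called in each of these alternatives is not given here. The counts of members therefore cannot show whether a change is particular to the members. Replicate numbers were not taken to pair the libraries, since the labels tie no number to a shared litter, batch or day. Of 24 same-numbered pairs, 16 correlated above 0.1, which does not decide whether the libraries are paired. As a hint from the data and not the design, the median correlation was 0.184 for same-numbered pairs (-0.276 to 0.676) and -0.0515 for 72 others, and 12 of 16 libraries correlated best with their own number. The median 95% interval half-width of 0.217 (log2) for the averaged TCDD effect limits what could be seen.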

Other observations

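A further 9 genes of these families carry keratin, plakophilin or annexin symbols in the gene name table but not in the authors' table, and so are outside the symbol patterns. One of them, the keratin krt99 of chromosome 11, was low in slincRosu3, at 3.58, 1.76, 2.49 and 1.72 CPM with TCDD and 1.6, 1.67, 2.26 and 2.02 CPM in controls. In WT it stood at 4.33, 7.29, 3.65 and 5.67 CPM with TCDD and 6.06, 5.07, 4.01 and 4.92 CPM in controls. No slincRosu3 library reached a WT library, and krt99 was 2.41-fold lower in slincRosu3 over both treatments (log2 fold change -1.27, SE 0.179, edgeR quasi-likelihood adjusted p = 0.000293). The simple-epithelial keratin krt18a.2 averaged 1.98 ± 0.639 CPM in slincRosu3 and 0.939 ± 0.288 CPM in WT (SD, n = 8 libraries each, log2 1.06, edgeR adjusted p = 0.00862). The annexin gene anxa1d, next to anxa1c on chromosome 5, averaged 19.4 ± 1.99 CPM in slincRosu3 and 24.7 ± 2.99 CPM in WT (SD, n = 8 libraries each, log2 -0.35, edgeR adjusted p = 0.0206). These genes were picked for their values.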
